A study of Homo sapiens with 16 samples.

Results

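The cytoplasmic ribosomal protein genes are described here in the pancreatic cancer cell lines MiaPaCa2 and PANC1. They were taken by symbol from the gene tables, as RPL or RPS followed by a number with an optional A or X, together with RPLP0, RPLP1, RPLP2 and RPSA, and the identifier with the most counts was kept where a symbol had several. Not every gene that this pattern matches is analysed here. The members were 76 of 63677 genes in the count table, 46 of the large and 30 of the small subunit. RNA was sequenced from 16 libraries, 2 biological replicates of each line grown in DMEM with fetal bovine serum as control, with 40 nM gemcitabine, with 50 uM genistein or with both drugs, for 24 h. Genistein was dissolved in DMSO and gemcitabine was not, and the labels do not give the vehicle of the controls. Gemcitabine is a nucleoside analogue that blocks DNA synthesis, and genistein is a soy isoflavone that binds estrogen receptors and inhibits tyrosine kinases. Each line is a single established line, so a difference between the lines is a difference between these cell cultures and their passage history.

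Ribosomal proteins are assembled with ribosomal RNA into the small (40S) and the large (60S) subunit, in nearly equal numbers of copies, and their mRNAs are among the most abundant of a growing cell. Most of these mRNAs start with a cytosine followed by a run of pyrimidines, the 5′ terminal oligopyrimidine (TOP) tract, through which mTOR and LARP1 regulate their translation. Some members also act outside the ribosome: RPL5 and RPL11 form a particle with 5S rRNA that binds MDM2 when ribosome assembly is disturbed, and phosphorylation of RPS6 is the common readout of mTOR and S6 kinase activity.

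The start of the gene was read from the RefSeq promoter table (GRCh38.p14), which held an entry for 61 of the 76 members. The tract was searched on the strand of the gene only, as a C at the annotated start followed by 4 or more bases that are each C or T, at any listed start of a gene. It was present in 45 of the 61 members (73.8%), in 6 of 66 mitochondrial ribosomal protein genes (9.09%) and in 1404 of 27305 genes with an entry (5.14%). The windows below run from 10 bases before the start to 20 bases from it, 5′ to 3′, with the tract in capitals. They are shown for members that the comparisons turn on: first members at the low and the high end of the difference between the lines, then members that moved with the drugs. RPL23 and RPL5, which were also at the low end, had no entry in the table.
RPL13A: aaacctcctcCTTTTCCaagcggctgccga
RPS6: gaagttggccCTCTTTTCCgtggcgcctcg
RPL18: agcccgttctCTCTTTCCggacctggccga
RPL27: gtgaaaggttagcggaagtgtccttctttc
RPLP2: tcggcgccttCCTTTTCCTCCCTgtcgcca
RPS25: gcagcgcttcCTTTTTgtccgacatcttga
RPLP0: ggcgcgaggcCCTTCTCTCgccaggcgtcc
RPLP1: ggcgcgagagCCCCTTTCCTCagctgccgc
RPL28: cctcgccttcCTCTTTCCgtctcaggtcgc
RPL36A: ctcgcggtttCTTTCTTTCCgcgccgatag
RPL3: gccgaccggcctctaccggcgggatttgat
The windows of RPL13A (chr19:49487598-49487627), RPLP2 (chr11:809957-809986), RPLP1 (chr15:69452808-69452837), RPL28 (chr19:55385922-55385951), RPL36A (chrX:101391001-101391030) and RPL27 (chr17:42998409-42998438) lie on the plus strand. Those of RPS6 (chr9:19380217-19380246), RPL18 (chr19:48619159-48619188), RPS25 (chr11:119018324-119018353), RPLP0 (chr12:120201092-120201121) and RPL3 (chr22:39319604-39319633) lie on the minus strand. RPL27 and RPL3 hold no tract by this rule at the annotated start, and RPLP2, at 13 bases, has the longest of the 11 shown. Members with and without the tract at an annotated start both had lower levels in PANC1. In the comparison of the controls described below, 35 of 45 with it and 14 of 16 without it were called lower, as were 29.2% of all genes tested. The median log2 fold changes of members with and without it were -0.84 and -1.04.

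The libraries held 12943482 to 31991860 counted reads each. The 76 members together took 3.86 to 4.38% of the counted reads in the 8 MiaPaCa2 libraries (median 4.06%) and 1.87 to 2.23% in the 8 PANC1 libraries (median 2.06%), so the ranges of the lines did not overlap. In bulk RNA, fewer cells expressing a gene and less RNA per cell cannot be told apart. The epithelial keratins KRT8 and KRT18 and the mesenchymal VIM were high in every library (lowest FPKM 369, 373 and 1398). KRT19 ran from 56.5 to 204 FPKM in MiaPaCa2 and from 282 to 749 in PANC1. The epithelial EPCAM and CDH1 and the mesenchymal CDH2 were at or near 0 in MiaPaCa2, and at most 12.8, 13.2 and 13.0 in PANC1. ZEB1, also mesenchymal, ran from 1.82 to 5.15 FPKM over both lines. The fibroblast marker COL1A1 ran from 0.44 to 1.83 FPKM in MiaPaCa2 and from 33.7 to 99.7 in PANC1. DCN, the other fibroblast marker examined, was at 0 FPKM in every library of both lines. PTPRC and CD3E (immune cells) and INS and GCG (islet) were at or near 0. CD68, a lysosomal protein used as a macrophage marker, ran from 14.2 to 37.6 FPKM in MiaPaCa2 and from 108.3 to 221 in PANC1, and its part in the results was not tested. Replicates differed by more than counting error in every group, most in the PANC1 controls (chi-square per degree of freedom 32.0, against 2.70 to 19.7 in the other 7 groups).

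**Figure D1:**
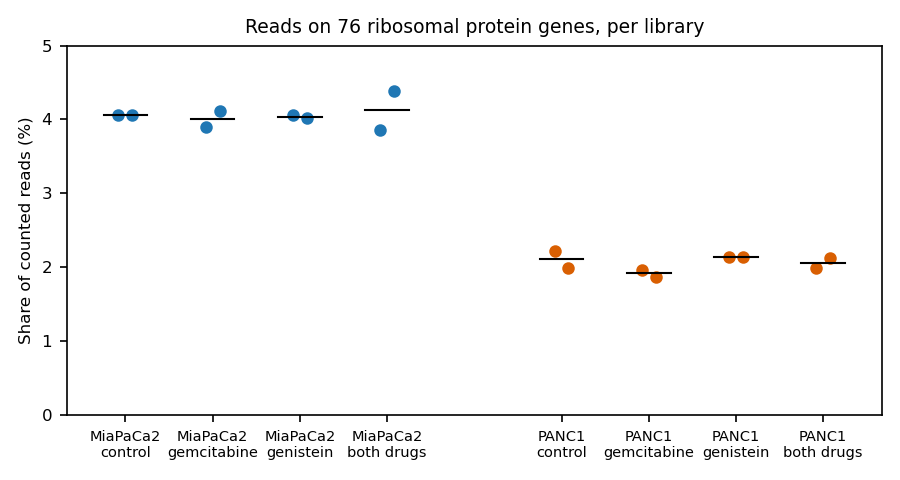
Share of counted reads (%, y axis) on the 76 ribosomal protein genes in each of the 16 libraries (points), by line and treatment, with lines at the mean of 2 replicates. All MiaPaCa2 libraries lie between 3.86 and 4.38% and all PANC1 libraries between 1.87 and 2.23%.

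Levels were compared between members on the deposited FPKM, a level per transcript length. In MiaPaCa2 control, 46 of the 76 had a mean FPKM above 1000, and in PANC1 control 27. The 5 with the highest mean over the 16 libraries were RPL37A, RPL8, RPS3, RPLP1 and RPLP2. RPL37A (a large-subunit protein) ran from 2422 to 5307 FPKM and was higher in every MiaPaCa2 than in every PANC1 library, at 4725 ± 59.4 and 2910.3 ± 453 in the controls (SD, n = 2). The order differed between the lines. In the MiaPaCa2 controls RPL37A (mean 4725), RPL23 (3939.7), RPL8 (3776) and RPL10 (3668) were among the 5 highest, and in the PANC1 controls RPLP2 (3439), RPL27A (3239), RPL30 (3202.5), RPLP1 (2950.4) and RPL37A (2910.3) led. RPL8 was above RPLP2 in every MiaPaCa2 library (3620 to 4587 against 2142 to 3089) and below it in every PANC1 library (1712 to 2374 against 2987 to 3788.5). RPS3, a small-subunit protein that is also active in DNA repair, had 3132 ± 93.9 FPKM in the MiaPaCa2 controls and 2776 ± 417 in PANC1 (SD, n = 2). The 5 lowest were RPL7 (171 to 342 FPKM), RPL22 (173 to 300.3), RPL9 (124 to 303), RPL21 (103.6 to 214) and RPS26 (35.4 to 57.2).

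Counts and FPKM did not see the members alike. Reads with several alignments were removed before counting, 73 of the 76 members have pseudogenes in the tables (922 in all), and 12 members had fewer than 10000 counts over the 16 libraries. Of the 76 members 75 passed the low-count filter and were tested in every comparison. RPL21, with 58 pseudogenes listed, had 87 and 58 counts in the MiaPaCa2 controls at 212 and 193 FPKM. RPS10, with 10, had 51 and 37 counts at 611 and 576 FPKM. The counts of RPL7, RPL21, RPS10, RPS26, RPL36A and RPL17 are low, and their values are uncertain. Among members with many counts, RPL5, with 37 pseudogenes listed, had 123489 counts over the libraries and RPS4X, with 23, had 339020. The source of the low counts was not tested. RPL17 and RPS10 also share exons with read-through transcripts to neighbouring genes (RPL17-C18orf32 and RPS10-NUDT3), and RPL36A and RPL10 overlap GLA and DNASE1L1 on the opposite strand, where the strand setting of the count is not given in the sources used here.

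The comparison of the untreated lines asks how far ribosomal protein mRNAs differ before any drug. They were lower in PANC1 nearly throughout. By limma-voom with TMM scaling, 59 of the 75 members tested were called lower and 3 higher at a Benjamini-Hochberg adjusted p of at most 0.05 (the criterion for every call in the text), where 29.2% of all 17863 genes tested were called lower and 34.1% higher. The median log2 fold change of the members was -0.87 (1.83-fold lower), against 0.06 for all genes tested. Large-subunit members gave 37 lower and 2 higher of 46 (median -1.0), and small-subunit members 22 lower and 1 higher of 29 (median -0.77). Over all 8 libraries of each line, whatever the treatment, 53 of the 75 had every PANC1 library below every MiaPaCa2 library, as had 17.5% of all genes, and no member had every PANC1 library above, as had 22.5% of all genes. Deposited FPKM gave a median log2 difference of -0.91 between the controls, with 69 of 76 members lower in PANC1. With 1 control left out at a time, the members' median ran from -1.07 to -0.77.

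**Figure D2:**
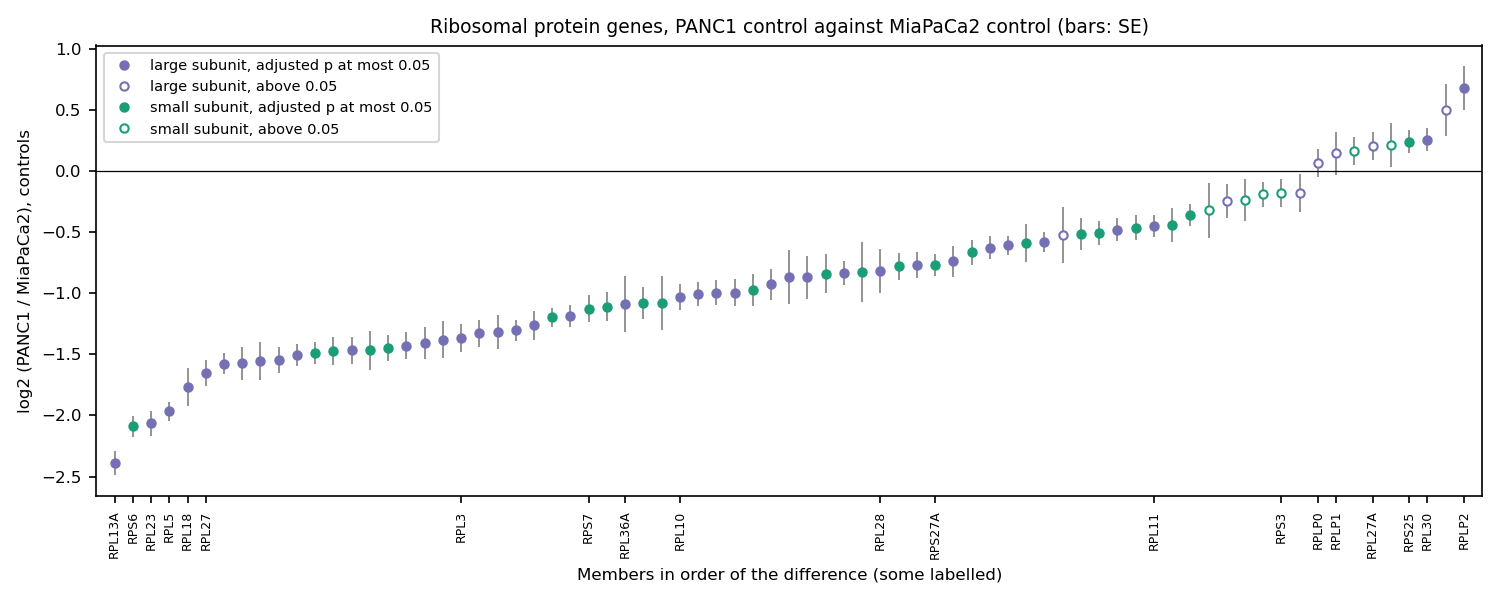
log2 fold change of PANC1 control against MiaPaCa2 control (y axis) for the 75 members tested, sorted by it along the x axis with 20 of them labelled, with bars of 1 SE from limma-voom, coloured by subunit and filled where the adjusted p was at most 0.05. Values run from -2.39 (RPL13A) to 0.68 (RPLP2), and 66 of 75 lie below 0.

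The members furthest below MiaPaCa2 were RPL13A, RPS6 and RPL23. RPL13A, a large-subunit protein that is also the core of the interferon-induced GAIT complex, had 741 and 723 CPM (counts scaled to library size by TMM) in the MiaPaCa2 controls and 149.7 and 131 in the PANC1 controls (log2 fold change -2.39 ± 0.10 SE, adjusted p = 3.40e-10). RPS6 had 1333 and 1240.1 CPM in MiaPaCa2 and 321 and 286 in PANC1 (log2 fold change -2.09 ± 0.08 SE, adjusted p = 2.77e-10). RPL23, which binds MDM2, had in the same order 919 and 855 against 216 and 209 CPM (log2 fold change -2.07 ± 0.11 SE, adjusted p = 2.44e-09). For these 3 no library of one line came near the other line: over all treatments RPL13A stayed between 658 and 785 CPM in MiaPaCa2 (median 722) and between 108.7 and 149.7 in PANC1 (median 128).

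Only RPLP2, RPL30 and RPS25 were called higher in PANC1. RPLP2, one of the acidic proteins of the P-stalk that recruits elongation factors, had 406 and 473 CPM in the MiaPaCa2 controls and 801 and 625 in the PANC1 controls (log2 fold change 0.68 ± 0.18 SE, adjusted p = 0.0046). The call of RPLP2 was lost without MiaPaCa2 control replicate 1 (adjusted p = 0.076 by limma). RPL30, a large-subunit protein, had 623 and 607 against 783 and 695 CPM (log2 fold change 0.26 ± 0.09 SE, adjusted p = 0.029). RPS25, needed for initiation at some viral internal ribosome entry sites, had 158 and 155 against 187 and 184 CPM (log2 fold change 0.24 ± 0.10 SE, adjusted p = 0.042). The controls did not overlap for any of the 3, but RPL30 lost its call when any control other than PANC1 control replicate 2 was left out, and RPS25 when any of the 4 controls was (adjusted p by limma 0.119 to 0.22 and 0.052 to 0.176).

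By role, the 3 P-stalk proteins stood at the high end. RPLP0, the stalk's anchor on the 60S subunit, had 686 and 686 CPM in MiaPaCa2 and 823 and 638 in PANC1, and RPLP1 had 358 and 419 against 500.2 and 372. Neither passed the test (log2 fold change 0.07, adjusted p = 0.63, and 0.15, adjusted p = 0.48, by limma). Of the partners in the 5S particle, RPL5 was 919 and 907 against 227 and 240.5 CPM (log2 fold change -1.96 ± 0.08 SE, adjusted p = 2.73e-10), while RPL11 was 909 and 911 against 701 and 637 (log2 fold change -0.45 ± 0.09 SE, adjusted p = 5.86e-04). Both were lower in PANC1, RPL5 by more than RPL11; the difference between the genes was not tested. RPS7, a further MDM2-binding protein, was lower too (log2 fold change -1.13), as were RPS27A, made as a fusion with ubiquitin (-0.77), RPS4X, on the X chromosome (-1.2), RPL10, which joins late in 60S maturation (-1.03), RPL22 (-1.26) and RPSA, also known as a laminin receptor (-0.50), each called by limma. RPS3 was not called (log2 fold change -0.18).

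Position in the genome went with the size of the difference. For each of the 75 members the median log2 fold change of the other genes tested within 2 Mb on either side (GRCh37, 10 to 154 genes) was taken, no gene of the rule included. Across members it correlated with the member's own log2 fold change (Spearman 0.66, Pearson 0.67, n = 75; close members share neighbours, and all values come from the same 4 control libraries). Neighbours of RPLP2 (chr11:809965-812880) had a median of 1.65, those of RPL27A (chr11:8704335-8736306) 1.23 and those of RPS25 (chr11:118886422-118889401) 1.12. The 5 members on chromosome 11 had a median of 0.21, where the other genes of that chromosome had 0.92. At the low end, RPL5 (chr1:93297570-93307481) lay among genes with a median of -0.75, whereas RPS6 (chr9:19375713-19380234) lay among genes with 0.05 and RPL13A (chr19:49990767-49996314) among genes with -0.24. All 75 members were below the median of their neighbours, by a median of 1.05 on the log2 scale. The member and its neighbours come from the same fit, so library scaling cancels in this difference. The part of DNA copy number was not tested.

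**Figure D3:**
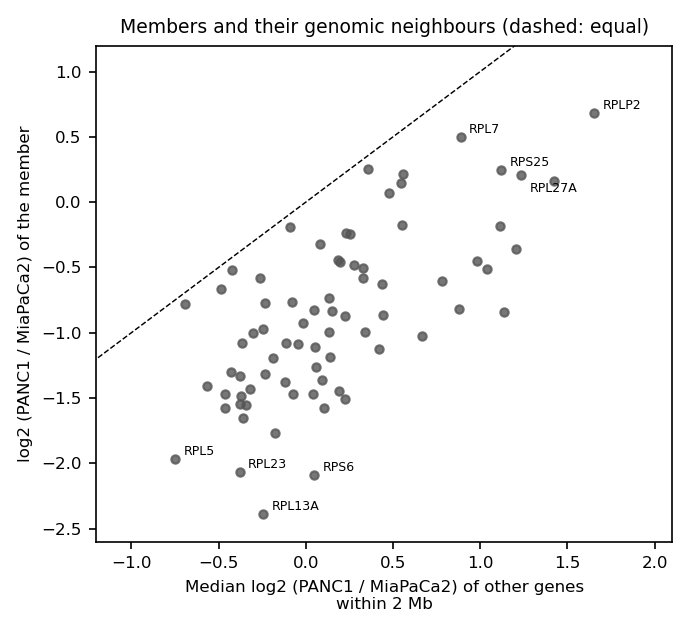
log2 fold change of PANC1 control against MiaPaCa2 control for each of the 75 members (y axis) against the median of the other genes tested within 2 Mb (x axis), with the line of equality dashed. All 75 points lie below the line, and members with higher neighbours, such as RPLP2, lie higher.

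Other properties went less with the difference. Spearman correlations across the 75 members were -0.05 with exonic GC content, -0.12 with the number of pseudogenes listed and -0.09 with the number of snoRNAs inside the gene, and -0.28 with FPKM in the MiaPaCa2 controls. The 29 members that host snoRNAs had a median of -0.97 and the 46 that do not -0.85. The 64 members with at least 10000 counts had a median of -0.95, with 54 lower and 3 higher.

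Genes of the same pathway were compared between the lines in the same fit, where 29.2% of all genes tested were called lower and 34.1% higher. Whether a list differs from these shares was not tested. Of 19 other TOP mRNAs tested, 14 were called lower in PANC1 and 2 higher (median -0.61), led by TPT1 (-1.66), the growth-related tumor protein, and the elongation factor EEF2 (-1.60), with FAU, the ubiquitin-like precursor of a 40S protein, at 1.09 on the high side. Of 74 mitochondrial ribosomal proteins, 26 were lower and 24 higher (median 0.08). Ribosome biogenesis factors gave 20 lower and 11 higher of 56 (median -0.13), with fibrillarin (FBL), the rRNA 2′-O-methyltransferase, at 3.61. Translation initiation and release factors gave 15 lower and 8 higher of 38 (median -0.08), and the RNA polymerase I machinery 4 and 4 of 15. Among ribosomal protein paralogs, which were not members, RPL39L had at most 3 counts in each MiaPaCa2 library and 540 to 1230 in each PANC1 library, and RPL26L1 (-1.09) and RPL22L1 (-1.01) were lower in PANC1.

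Gemcitabine was compared with control to ask what the chemotherapy alone changes. In MiaPaCa2, 21 of the 75 members were called lower and none higher by limma-voom, where 19.6% of all 16064 genes tested were lower and 19.4% higher. At an unadjusted p under 0.05, 32 members were lower and 0 higher. No share of all genes was computed for an unadjusted p, here or in the comparisons below, so such counts have no background. With only the 4 libraries compared in the fit 31 members were lower and 4 higher, where 3866 and 3863 of 15593 genes were. With library size alone 12 and 1 were, where 2173 and 4039 of 16064 genes were. edgeR's quasi-likelihood test called 19 members lower and 0 higher, where 3115 and 3140 of 16064 genes were. DESeq2 called 15 lower and 0 higher, where 2479 and 2608 of 16064 genes were. The members' median was -0.15 (1.11-fold lower), against -0.01 for all genes, and 63 of 75 had a negative log2 fold change. The 3 that fell most were RPL36A, RPL17 and RPS10. RPL36A, on the X chromosome, had 8.88 and 7.97 CPM in the controls and 3.32 and 4.4 with gemcitabine, from 43 to 146 counts in each of the 16 libraries (log2 fold change -1.19 ± 0.23 SE, adjusted p = 0.0016). RPL17, near the exit of the peptide tunnel, had 302 and 247 against 174 and 181 counts (log2 fold change -0.82 ± 0.14 SE, adjusted p = 8.14e-04), and RPS10 51 and 37 against 35 and 23 (log2 fold change -0.81 ± 0.29 SE, adjusted p = 0.041). All 3 are members with low counts, and RPS10 lost its call without any 1 of the 4 libraries (adjusted p by limma 0.068 to 0.253). Their deposited FPKM moved less: RPL17 had 849 and 779.8 FPKM in the controls and 629 and 680.4 with gemcitabine, RPL36A 382 and 375 against 348 and 368, and RPS10 611 and 576 against 552 and 631.

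Among members with many reads the falls were smaller. RPL5 had 919 and 907 CPM in the controls and 609 and 705 with gemcitabine, with no overlap (log2 fold change -0.53 ± 0.08 SE, adjusted p = 2.80e-04). RPL22 (-0.55), RPL23 (-0.32), RPS27A (-0.32), RPS7 (-0.26) and RPS3 (-0.22) were also called lower by limma. The P-stalk proteins were not (RPLP0 -0.01, RPLP1 0.08, RPLP2 0.20), nor were RPL11 (-0.23), RPS6 (-0.18), RPL10 (-0.14), RPS4X (-0.08) or RPSA (-0.17). The 64 members with at least 10000 counts gave 14 lower (median -0.14) and the 11 tested with fewer gave 7 (median -0.65). Across members the log2 fold change rose with exonic GC content (Spearman 0.63, n = 75, over the same 4 libraries). It fell with the number of pseudogenes listed (Spearman -0.36). GC content also separated the libraries themselves. The GC trend of a library was taken over all genes tested, on log2 CPM relative to the mean of the 8 libraries of its line. It was -0.24 and -0.15 log2 units per 10 percentage points in the MiaPaCa2 controls and 0.15 and 0.06 with gemcitabine. With a correction for GC 33 members were lower and 1 higher, while limma on log2(FPKM + 1) called 2 lower, with a median of -0.02. Of all 16064 genes the GC correction called 3652 lower and 3600 higher, and limma on log2(FPKM + 1) 942 and 2112 of 16829. The number of members called changed with 1 library left out at a time, and their median ran from -0.27 to -0.086.

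**Figure D4:**
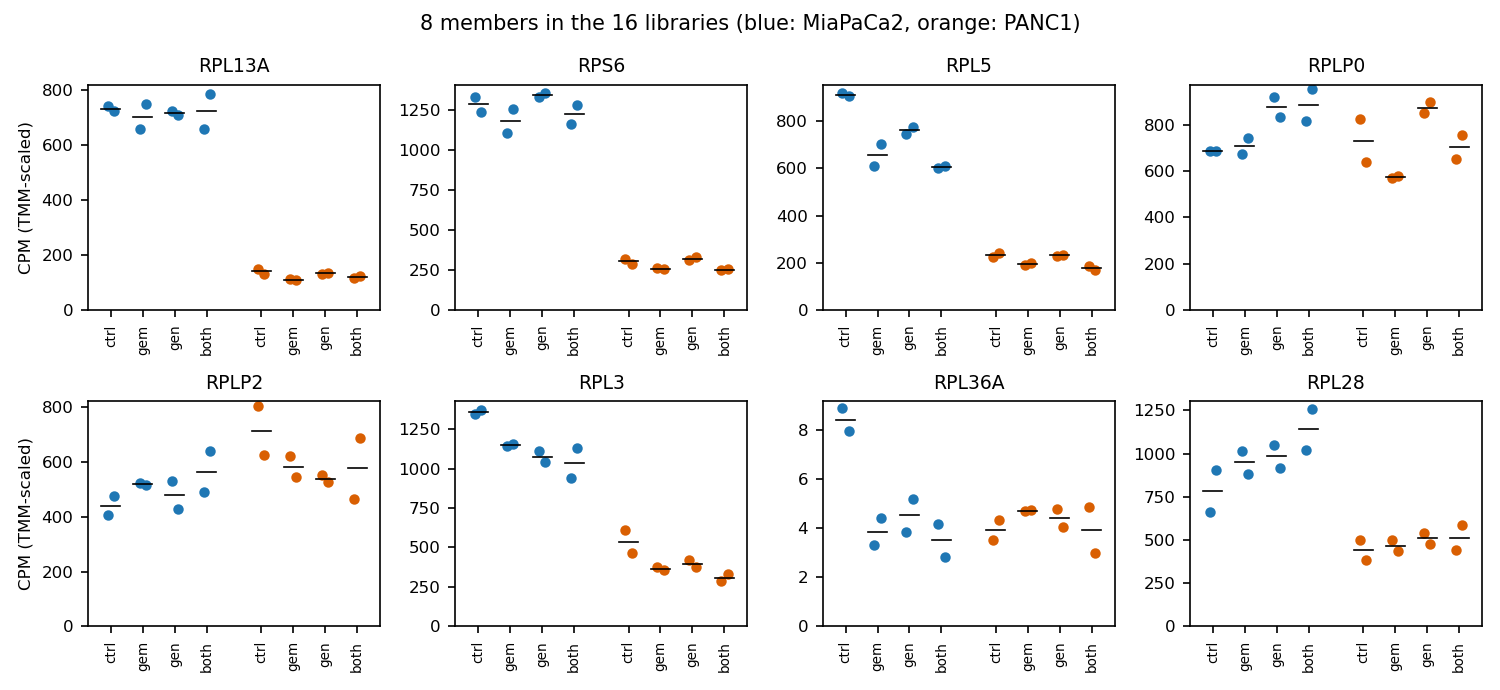
CPM (TMM-scaled over 16 libraries, y axis from 0) of 8 members in each library (points) by treatment (ctrl, control; gem, gemcitabine; gen, genistein; both, both drugs), MiaPaCa2 in blue and PANC1 in orange, with lines at the mean of 2 replicates. RPL13A, RPS6, RPL5, RPL3 and RPL28 separate the lines in every library, RPL36A in MiaPaCa2 is highest in the controls, and RPLP0 and RPLP2 overlap between the lines.

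Of the other lists in MiaPaCa2 with gemcitabine, those of ribosome assembly and translation had lower medians than the members, and the mitochondrial ribosomal proteins did not. Of 56 ribosome biogenesis factors tested, 43 were called lower and none higher (median -0.56), led by the snoRNP protein NOP58 (-1.36) and the U3 snoRNP protein MPHOSPH10 (-1.18). Of 15 genes of the RNA polymerase I machinery 9 were lower and none higher (median -0.38), with TAF1D at -1.38. Translation initiation and release factors gave 25 lower and 2 higher of 38 (median -0.45), with the cap-binding EIF4E at -1.16 and its repressor EIF4EBP2 at 0.40. Other TOP mRNAs gave 11 lower and none higher of 19 (median -0.27), with HNRNPA1 at -1.09 and nucleophosmin (NPM1) at -1.0, and mitochondrial ribosomal proteins 18 lower and 3 higher of 74 (median -0.10). Of all genes tested in this comparison, 19.6% were called lower and 19.4% higher. Whether the lists differ from the members or from all genes was not tested.

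In PANC1, gemcitabine left 5 of the 75 members called lower and none higher, where 3.61% of all 16909 genes tested were lower and 4.89% higher. At an unadjusted p under 0.05, 29 members were lower and 0 higher, with no share of all genes computed at that threshold. edgeR's quasi-likelihood test called 4 members lower and 0 higher, where 577 and 770 of 16909 genes were. DESeq2 called 9 lower and 0 higher, where 912 and 912 of 16909 genes were. The members' median was -0.22, against 0.03 for all genes, and 69 of 75 had a negative log2 fold change. Both gemcitabine libraries lay below both controls for 55 members, as they did for 24.3% of all genes, and above both for 3 members, as for 28.6% of all genes. RPL3, which lines the peptidyl transferase centre, had 609 and 463 CPM in the controls and 375 and 357 with gemcitabine (log2 fold change -0.48 ± 0.12 SE, adjusted p = 0.048). RPL27A had 575 and 442 against 357 and 344 CPM (log2 fold change -0.47 ± 0.11 SE, adjusted p = 0.039). In both genes the controls were above, and the controls lay far apart. Both calls were lost without PANC1 control replicate 1 (log2 fold change -0.34 in each) or either gemcitabine library. With 1 library left out at a time the number of members called changed, and the members' median ran from -0.32 to -0.17. A GC correction gave 22 lower and 2 higher, and limma on log2(FPKM + 1) gave 0 (median -0.11). Of all 16909 genes the GC correction called 2176 lower and 2802 higher, against 611 and 827 without it. Limma on log2(FPKM + 1) called 96 lower and 383 higher of 17573 genes. The 2 PANC1 controls had GC trends, relative to the mean of their line, of 0.30 and -0.08 log2 units per 10 percentage points. In this line ribosome biogenesis factors gave 5 higher and none lower of 56 (median 0.07), among them RRP12, a factor of pre-ribosome export (1.08), and the GTPase GNL2 (0.96).

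**Figure D5:**
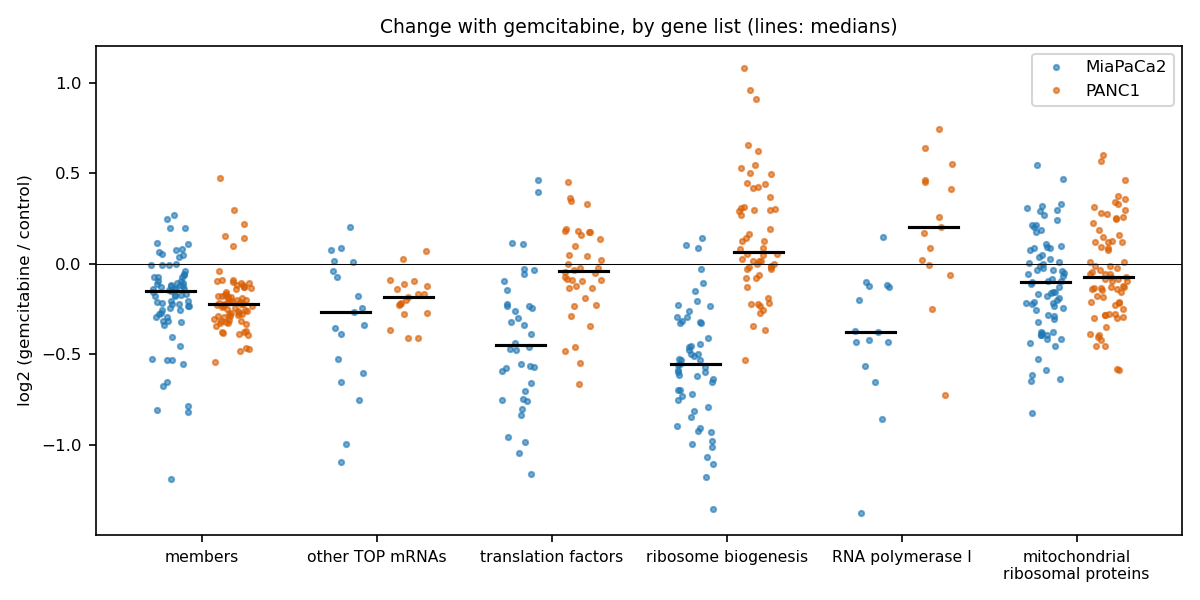
log2 fold change of gemcitabine against control (y axis) for each gene tested of the members and of 5 other lists, in MiaPaCa2 (blue) and PANC1 (orange), with lines at the medians. The members' medians are -0.15 and -0.22, and those of ribosome biogenesis factors -0.56 and 0.07.

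The response to gemcitabine was tested between the lines in a model of all 16 libraries. RPL36A was the only member called, where 15.3% of the 17863 genes tested were called in either direction. Against the MiaPaCa2 values above, it had 3.51 and 4.35 CPM in the PANC1 controls and 4.7 and 4.73 with gemcitabine. Its response was higher in PANC1 (log2 fold change 1.39 ± 0.34 SE, adjusted p = 0.019). Its call was lost without MiaPaCa2 control replicate 1, MiaPaCa2 gemcitabine replicate 1 or PANC1 gemcitabine replicate 2 (adjusted p by limma 0.078, 0.092 and 0.068), and on log2(FPKM + 1) (0.987). The members' median difference was -0.16, against -0.08 for all genes. With 1 library left out at a time the number of members called changed, and their median difference ran from -0.30 to -0.047. Of 56 ribosome biogenesis factors 30 had a higher response in PANC1 and none a lower one (median 0.55), led by NOC3L (1.72) and RRP12 (1.57). RPL22L1, a paralog of RPL22, had 37.9 and 32.2 CPM in the MiaPaCa2 controls and 19.0 and 20.9 with gemcitabine (log2 fold change -0.87 ± 0.12 SE, adjusted p = 2.23e-04). In PANC1 it had 16.9 and 17.8 against 32.6 and 38.6 (log2 fold change 1.08 ± 0.16 SE, adjusted p = 0.01). Its values fell in one line and rose in the other without overlap of the groups, and the difference was called (log2 fold change 1.84 ± 0.19 SE, adjusted p = 1.30e-04). RPL22 itself was not called in this test (log2 fold change 0.30, adjusted p = 0.25 by limma).

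Genistein alone was compared with control to ask what the isoflavone changes without chemotherapy. In MiaPaCa2, 3 members were called lower and 1 higher of 75, where 5.42% and 5.99% of all genes were, and the members' median was -0.004. RPLP0 had 686 and 686 CPM in the controls and 920.1 and 833 with genistein (log2 fold change 0.33 ± 0.08 SE, adjusted p = 0.025). RPL36A had 8.88 and 7.97 against 3.86 and 5.19 CPM (log2 fold change -0.88 ± 0.22 SE, adjusted p = 0.025), and RPL3 1344 and 1373 against 1110.1 and 1039 (log2 fold change -0.36 ± 0.08 SE, adjusted p = 0.015). RPL5 had 919 and 907 against 748 and 777 (log2 fold change -0.27 ± 0.08 SE, adjusted p = 0.042). The groups did not overlap in any of these 4 genes, which were named because they were called on the same libraries, so this is no separate support. No member was called without either control or without genistein replicate 1, and 1 was higher and 1 lower without genistein replicate 2. Ribosome biogenesis factors gave 5 lower and 3 higher of 56. In PANC1 no member was called with genistein by limma-voom, where 0.0591% of the 16909 genes were called. At an unadjusted p under 0.05, 7 members were higher and 6 lower by limma-voom. edgeR called 0 members, and 11 of all genes higher and 1 lower. DESeq2 called 1 member, and 247 of all genes higher and 548 lower. The members' median was 0.02 by limma-voom. A difference between the lines in the genistein response was called for no member by limma-voom, edgeR or DESeq2 (3 higher and 3 lower at an unadjusted p under 0.05 by limma-voom). Limma-voom called 0.0336% of all 17863 genes at the adjusted p, and DESeq2 called 68 higher and 117 lower.

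Both drugs together were compared with control and with gemcitabine alone, the latter to ask what genistein adds; the comparisons of a line share its libraries. In MiaPaCa2, 22 of 75 members were lower and 4 higher with both drugs, where 26.2% and 25.4% of all genes were, so the share of members that fell was near that of all genes and the share that rose below it. The members' median was -0.11. RPL36A (8.88 and 7.97 CPM in the controls, 4.19 and 2.83 with both drugs; log2 fold change -1.36 ± 0.24 SE, adjusted p = 4.84e-04), RPL21 (5.29 and 4.44 against 2.48 and 2.64; log2 fold change -0.98 ± 0.23 SE, adjusted p = 0.003) and RPL17 (18.4 and 18.9 against 11.5 and 11.5; log2 fold change -0.76 ± 0.14 SE, adjusted p = 7.83e-04) fell most. Large-subunit members gave 18 of the 22 falls and small-subunit members 4 (medians -0.15 and -0.06). RPL5 fell with no overlap, from 919 and 907 to 603 and 611 CPM (log2 fold change -0.65 ± 0.08 SE, adjusted p = 2.89e-05), and RPL22 (-0.57), RPS27A (-0.48), RPL11 (-0.33), RPL23 (-0.29) and RPS7 (-0.27) were called lower too.

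The members that rose with both drugs in MiaPaCa2 were led by RPL28, RPLP1 and RPLP0. RPL28, a large-subunit protein, had 661 and 905 CPM in the controls and 1021 and 1261 with both drugs (log2 fold change 0.50 ± 0.13 SE, adjusted p = 0.007). RPLP1 had 358 and 419 against 482 and 623 (log2 fold change 0.45 ± 0.12 SE, adjusted p = 0.0083), and RPLP0 686 and 686 against 815 and 955 (log2 fold change 0.30 ± 0.08 SE, adjusted p = 0.0088). Without control replicate 1 RPL28 was at 0.27 (adjusted p by limma 0.139) and without control replicate 2 at 0.71, and a GC correction gave 0.25 (0.057). RPLP1 lost its call without replicate 2 of both drugs (0.29) or control replicate 1 (0.33), and RPLP0 without either control (0.061 and 0.056 as adjusted p by limma). Replicate 2 of both drugs was the higher library in all 3. Its GC trend, relative to the mean of its line, was 0.30, against 0.05 in replicate 1. With 1 library left out at a time the number of members called changed in both directions, and the members' median ran from -0.19 to -0.018. After correction for GC and length 1 was higher and 44 lower, and limma on log2(FPKM + 1) gave 4 higher and 6 lower (median 0.03). Of all 16064 genes the GC and length correction called 4468 higher and 4831 lower, and limma on log2(FPKM + 1) 3326 and 2329 of 16829. Against gemcitabine alone, RPLP0 was the only member called in MiaPaCa2, where 4.83% of all genes were higher and 2.51% lower. It had 675 and 745 CPM with gemcitabine and 815 and 955 with both drugs (log2 fold change 0.31 ± 0.08 SE, adjusted p = 0.043). With 1 library left out at a time, RPLP0 ran from 0.22 to 0.41 and the members' median from -0.046 to 0.15. RPLP0 lost its call without replicate 2 of both drugs or either gemcitabine library. Ribosome biogenesis factors gave 12 lower and none higher of 56 in this comparison (median -0.28), with WDR43, a factor of small-subunit assembly, at -0.66.

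In PANC1, both drugs gave 8 members lower and none higher of 75 against control, where 8.24% and 11.6% of all genes were. At an unadjusted p under 0.05, 26 members were lower and 0 higher, with no share of all genes computed at that threshold. The members' median was -0.20, with 71 of 75 negative, against 0.01 for all genes. RPL3 had 609 and 463 CPM in the controls and 287 and 331 with both drugs (log2 fold change -0.75 ± 0.12 SE, adjusted p = 0.0061). RPL7A had 332 and 229.5 against 179 and 197 CPM (log2 fold change -0.51 ± 0.15 SE, adjusted p = 0.048), and RPL19 524 and 427 against 320.1 and 349.6 (log2 fold change -0.47 ± 0.10 SE, adjusted p = 0.016). The groups did not overlap in these 3 large-subunit genes, which again were named because they were called on the same libraries. RPL7A ranged from -0.79 without PANC1 control replicate 2 to -0.33 without control replicate 1, and was not called without control replicate 1 or either library of both drugs (adjusted p by limma 0.067, 0.143 and 0.081). RPL19 lost its call without replicate 1 of both drugs (adjusted p by limma 0.071). RPL23 (-0.39) and RPL5 (-0.37) were called lower as well. The number of members called changed with 1 library left out at a time, and the members' median ran from -0.31 to -0.17. A GC correction gave 35 lower and 1 higher. Of all 16909 genes it called 3458 lower and 3837 higher, against 1394 and 1955 without it. Other TOP mRNAs gave 6 lower and none higher of 19, among them the elongation factor EEF1A1 (-0.69), and ribosome biogenesis factors 3 lower and 4 higher of 56. Against gemcitabine alone no member was called in PANC1 by limma-voom, edgeR or DESeq2 (1 higher and 1 lower at an unadjusted p under 0.05 by limma-voom). Limma-voom called 0.0177% of all genes at the adjusted p, and DESeq2 called 157 higher and 57 lower of 16909. The members' median was 0.01 by limma-voom.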

How the data were processed

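Poly-A RNA of the 16 libraries (TruSeq Stranded) was aligned to GRCh37 and, per the labels, the submitters' processing notes name TopHat2 2.0.4, SAMtools, Picard 1.29, HTSeq 0.6.1 and Cufflinks 2.1.1. The deposited count table holds the authors' whole-number read counts per gene, made after reads with several alignments were removed, and the deposited FPKM table holds the authors' gene levels per unit of transcript length, also scaled for depth. The annotation release and strand setting of the count are not given in the sources used here. Deposited isoform FPKM values were not used.

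Samples were grouped by line and treatment from the labels. Counts were filtered for low values, scaled by TMM and tested by limma-voom (R 4.3.3, limma 3.58.1, edgeR 4.0.16), each treatment comparison within the 8 libraries of its line and the line and response differences in all 16. All genes were fitted, and p-values were Benjamini-Hochberg adjusted over all genes tested. Totals of 12943482 to 31991860 counts per library set the precision. With 2 replicates per group, p-values measure the spread between these samples only. The scripts were tested on simulated data. Gene positions, exonic GC content and neighbours were taken from a GRCh37 annotation.

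The members and lists were chosen with earlier results of these data known. Members named were the 3 largest rises and 3 largest falls among those called in each comparison, 15 named by role, and the 5 highest and 5 lowest by FPKM. Some members that these rules give are not reported here. From each other list the 2 largest rises and falls were named. RPL18 and RPL27 were added to the sequences shown, for their differences between the lines, after their values were seen. Alternatives were DESeq2 1.42.0, edgeR's quasi-likelihood test, library size alone, TMM without the members, no filter, corrections for GC and for GC and length, the replicate block, limma on log2(FPKM + 1), only the libraries compared, the study's thresholds (adjusted p of at most 0.05 and log2 fold changes of 0.4 or more either way, where treated libraries averaged an FPKM above 1 or, between the lines, those of either control did), leaving out each replicate and, chosen after seeing the data, only members with at least 10000 counts.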

Additional observations from a re-analysis of the deposited data

Results flagged for a closer look

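The response to gemcitabine differed between the lines for RPL36A, with a log2 difference of 1.39 (PANC1 minus MiaPaCa2, adjusted p = 0.019 by limma-voom over all 16 libraries). It had 43 to 146 counts in each of the 16 libraries. Its deposited FPKM gave a difference of 0.0054 (adjusted p = 0.987 by limma).

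The same test called genes of the related lists. Of 56 ribosome biogenesis factors 30 were called, all with a higher response in PANC1. The RNA polymerase I machinery had 5 of 15 called, 4 with a higher and 1 with a lower response. Translation initiation and release factors had 8 of 38, all higher, and mitochondrial ribosomal proteins 9 of 74, 8 higher and 1 lower. Other TOP mRNAs had 3 of 19, all higher, and ribosomal protein paralogs 1 of 7, RPL22L1. Of all genes tested, 15.3% were called.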

How the results depend on the processing

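The lower level of members in PANC1 controls held under every alternative run, with medians of -1.07 to -0.77 when 1 control was left out. Drug comparisons moved more, and the cause was not tested. The settings also changed the number of calls over all genes, so a count of members alone does not measure a change in the members. No share of all genes is given for the fits with 1 library left out, so their counts of members have no background. A GC correction gave 34 calls for gemcitabine and 9 for genistein in MiaPaCa2, 3 for both drugs against gemcitabine, and in PANC1 24 for gemcitabine, 36 for both drugs, 7 for genistein (median -0.068) and 1 for both drugs against gemcitabine, with 4 for the gemcitabine response. GC and length correction gave 42 for gemcitabine, 45 for both drugs (median -0.23), 8 for genistein (median -0.085) and 3 for both drugs against gemcitabine in MiaPaCa2, and 28, 45 (median -0.28), 8 (median -0.10) and 1 (median -0.084) in PANC1, with 3 for the gemcitabine response. With the GC correction and the replicate block PANC1 gave 22 for gemcitabine, 32 for both drugs, 4 for genistein (median -0.067) and 1 for both drugs against gemcitabine, MiaPaCa2 2 for both drugs against gemcitabine, and the gemcitabine response 2. Library size alone, which moved the median of all genes by 0.10 to 0.16 in 4 of these comparisons, gave 13 for gemcitabine in MiaPaCa2 (median -0.045), 1 for gemcitabine (median -0.11) and 3 for both drugs (median -0.046) in PANC1, 3 for the gemcitabine response (median -0.060), and medians of 0.036 for the genistein response and 0.053 for both drugs against gemcitabine in PANC1. On log2(FPKM + 1), MiaPaCa2 gave 2 for gemcitabine (median -0.016), 10 for both drugs (median 0.034), 0 for genistein and 0 for both drugs against gemcitabine. PANC1 gave 0 for gemcitabine (median -0.11), 1 for both drugs (median -0.032) and a median of 0.073 for both drugs against gemcitabine, the gemcitabine response gave 0 and the genistein response had a median of 0.052. With only the libraries compared there were 35 for gemcitabine (31 lower and 4 higher) and 0 for both drugs against gemcitabine in MiaPaCa2, and 0 for gemcitabine, 0 for both drugs and a median of -0.033 for genistein in PANC1. The study's thresholds gave 11, 9, 1 and 0 in MiaPaCa2 for gemcitabine, both drugs, genistein and both drugs against gemcitabine, and 3 for gemcitabine and 4 for both drugs in PANC1. DESeq2 gave 9 for gemcitabine (median -0.27) and 1 for genistein (median -0.027) in PANC1 and 2 for the gemcitabine response. edgeR gave 0 for both drugs against gemcitabine in MiaPaCa2, no low-count filter gave 2 for gemcitabine in PANC1, and only members with at least 10000 counts gave 0 for the gemcitabine response.

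The labels number the replicates but do not say whether same-numbered samples belong together. Correlations of same-numbered deviations ran from -0.26 to 0.13 in MiaPaCa2 and from -0.51 to 0.26 in PANC1, which cannot decide it. The replicate block gave 1 call for gemcitabine and 3 for both drugs in PANC1, and 0 for both drugs against gemcitabine in MiaPaCa2.

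Leaving out 1 library at a time gave 5 to 21 calls for gemcitabine (medians -0.27 to -0.086), 8 to 32 for both drugs (-0.19 to -0.018), 0 to 2 for genistein (-0.015 to -0.0015) and 0 to 14 for both drugs against gemcitabine (-0.046 to 0.15) in MiaPaCa2. In PANC1 it gave 0 to 18 for gemcitabine (-0.32 to -0.17), 1 to 18 for both drugs (-0.31 to -0.17), 0 for genistein (-0.087 to -0.0080) and 0 for both drugs against gemcitabine (-0.0051 to 0.061). The gemcitabine response had 0 to 19 (-0.30 to -0.047), the genistein response 0 to 1 (-0.23 to 0.067), and the line comparison medians of -1.07 to -0.77. RPKM from counts gave median levels of 399 in MiaPaCa2 and 219 in PANC1 controls, and a TMM-scaled library size a share of 4.17% in MiaPaCa2 controls. Of the values of single members named, 76.4% kept their direction and side of the threshold, 23.6% kept the direction and lost the call, and 0 reversed. Of the counts, medians, levels and shares, 29.4% moved beyond the margin set and 70.6% did not.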
